A study of Mus musculus with 18 samples.

Results

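The miR-379 to miR-410 cluster is a run of miRNA hairpins on mouse chromosome 12. Its miRNAs were measured by small RNA sequencing in femoral condyle cartilage from mice in which the anterior cruciate ligament (ACL) was torn by loading. Its members were taken by name as both mature arms of 38 listed hairpins. Of these, 36 had a column in the count table and gave 69 mature arms among the 1412 miRNAs of the table. The cluster was chosen by measured values, because its members were higher in day 7 injured cartilage. Levels and changes in every comparison that holds the day 7 injured libraries are therefore a description. No single p-value is given there, counts stand beside the same count or share over all features, and nothing rests on them. Filtering on low counts left 428 miRNAs, with 33 of the 69 members among them. Without the day 7 injured libraries 28 of these 33 would have passed. The other 5, miR-380-5p, miR-380-3p, miR-323-3p, miR-1193-3p and miR-376b-3p, were admitted by the group in which they were high.

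The 18 libraries came from male C57Bl/6J mice in 5 groups, aged 12 weeks per the study's methods. Naïve mice were not loaded (6 libraries, labelled as the day 7 naïve group). In the others a single load ruptured the ACL of the right knee, and cartilage of that injured knee and of the uninjured contralateral knee was taken at day 1 or at day 7, with 3 libraries for each knee and day. The groups share strain and sex, and carry no engineered allele per the labels. Each library was a pool of cartilage from several animals. Per the study, 6 ruptured mice were taken at day 1 and 12 at day 7, where pools held 4 mice because part of the cartilage was lost. Among ruptured mice, pool size therefore goes with day. The naïve group had fewer mice and more libraries than the day 7 injured group, so pool size can also differ between these groups. Its part in their comparison was not tested. Left and right knees were pooled separately, so with 6 naïve mice the 6 pooled naïve libraries share mice and are not 6 independent units. The labels do not tie libraries to pools, so p-values measure the spread between pooled libraries only. Libraries held between 758388 and 4088852 counts, the lowest in day 7 injured library 1. Day 1 injured library 2, with 946624 counts, had no count for 4 tested members (miR-380-3p, miR-323-3p, miR-376b-3p and miR-369-3p).

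Both arms of an miRNA hairpin derive from one long transcript, which is cut first in the nucleus and then in the cytoplasm to a short duplex. One strand is usually kept by an Argonaute protein, where bases 2 to 8 of the mature sequence, the seed, pair with target mRNAs. The cluster lies in the imprinted Dlk1-Dio3 domain, band 12qF1. There the maternally inherited chromosome expresses the noncoding RNAs Meg3, Rian and Mirg together with the miRNAs, whereas the paternally inherited one expresses the protein-coding genes Dlk1, Rtl1 and Dio3. The miRNAs of this domain are best known from the embryo, the placenta and the brain.

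The mature sequences of the 8 members with the highest mean abundance are shown first, since they carried most of the cluster's reads. They are RefSeq sequences of mouse build GRCm38.p6, 5′ to 3′, with the seed in capitals. RefSeq gave a mature sequence for 65 of the 69 arms.
miR-379-5p: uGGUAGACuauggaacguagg
miR-541-5p: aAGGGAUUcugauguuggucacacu
miR-381-3p: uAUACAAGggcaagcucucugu
miR-411-5p: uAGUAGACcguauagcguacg
miR-300-3p: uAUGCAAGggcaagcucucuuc
miR-382-5p: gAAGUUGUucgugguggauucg
miR-134-5p: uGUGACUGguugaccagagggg
miR-543-3p: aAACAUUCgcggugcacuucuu

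A further 8 members are shown because they mark the ends of the cluster, share a seed or differed from the other arm of their hairpin. The exception is miR-369-3p, which had the largest day 7 difference from naïve among members averaging at least 10 CPM.
miR-379-3p: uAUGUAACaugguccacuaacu
miR-411-3p: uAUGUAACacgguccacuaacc
miR-376b-5p: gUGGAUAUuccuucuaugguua
miR-376b-3p: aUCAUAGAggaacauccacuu
miR-380-3p: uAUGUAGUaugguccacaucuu
miR-409-3p: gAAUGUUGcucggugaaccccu
miR-369-3p: aAUAAUACaugguugaucuuu
miR-410-3p: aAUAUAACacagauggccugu
Among the 31 tested members with a mature sequence, miR-379-3p and miR-411-3p were the one pair with the same seed, and these sequences were an edit distance of 2 apart. How reads that match more than 1 mature sequence were counted is not stated, so the split between these arms is uncertain. The same holds for miR-300-3p and miR-381-3p, which were an edit distance of 3 apart, and for miR-376b-5p and the untested miR-376c-5p, which were 1 apart with the same seed. No pair of members had the same count in every library.

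Of the 36 hairpins with a column, 34 were placed on GRCm38.p6, and miR-666 and miR-544 were not. The placed hairpins of the list ran over 34.7 kb, chr12:109709060-109743795, from miR-379 to miR-410. They lay on the plus strand except miR-299b, which lay on the minus strand opposite miR-299a. In the GENCODE annotation 4 of the 36 placed hairpins of the list lay in an exon of Mirg, 9 in an intron of Mirg and 23 in no annotated gene of their strand. Mirg itself was annotated at chr12:109729764-109749460, downstream of Meg3 at chr12:109541001-109571726 and of Rian at chr12:109603940-109661716, all on the plus strand. The start of the cluster therefore lay between the annotated end of Rian and the annotated start of Mirg.

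Summed over the 69 arms, the cluster was several times higher in day 7 injured cartilage than in any other group. Its summed abundance, in counts per 1e6 counts after TMM scaling (CPM), was 7890, 8791 and 9287 in the day 7 injured libraries. Naïve libraries held between 2230 and 2516 CPM with a median of 2350.1. The day 7 contralateral libraries held 2407, 2228 and 2092 CPM and the day 1 contralateral libraries 2425, 2223 and 2060.3 CPM. In the day 1 injured libraries the sum was 2710.4, 1844 and 2805 CPM, so the lowest and the highest of the 15 libraries outside the day 7 injured group were both injured at day 1. The mean sum at day 7 after injury was 3.64-fold the naïve mean, 3.86-fold the day 7 contralateral mean and 3.53-fold the day 1 injured mean. As a share of all counts, with no scaling, the members made up between 0.757% and 0.877% of the day 7 injured libraries and between 0.193% and 0.341% of the others. The 32 other miRNA arms of 12qF1 had a mean sum that was 2.53-fold naïve and 2.83-fold day 7 contralateral.

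**Figure D1:**
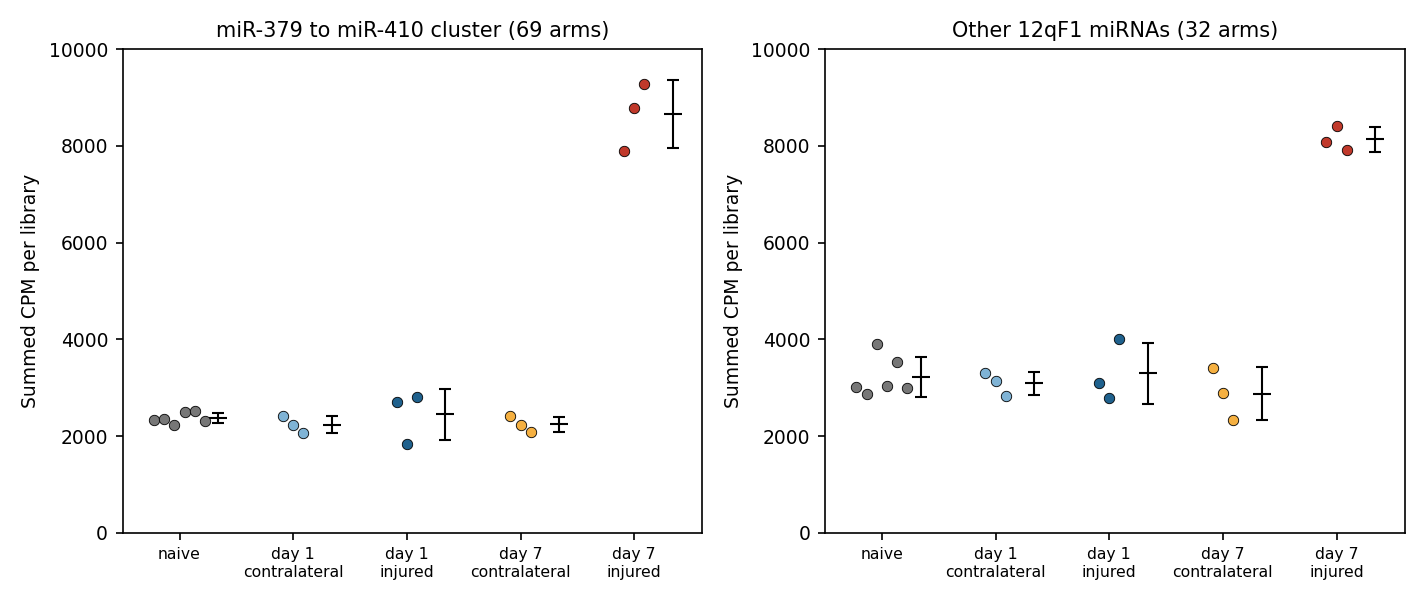
Summed CPM per library (y axis, linear from 0) of the 69 arms of the miR-379 to miR-410 cluster (left) and of 32 other miRNA arms of 12qF1 (right) in the 5 groups. Points are libraries and the bar beside them is mean ± SD; the 3 day 7 injured libraries lie between 7890 and 9287 CPM for the cluster, above the 15 others.

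A few arms made up most of the cluster. The 4 most abundant members, miR-379-5p, miR-541-5p, miR-381-3p and miR-411-5p, held 72.9 ± 2.28% of its summed CPM in naïve libraries (SD, n = 6) and 74.4 ± 0.236% in day 7 injured libraries (n = 3). In the other groups their mean share was between 71.8% and 74.0%. The most abundant member was miR-379-5p in 15 of the 18 libraries, including the 3 day 7 injured ones. Of the 69 arms, 6 averaged over 100 CPM across libraries and 26 averaged under 1 CPM. Single arms shifted more than this summed share. miR-411-5p held a mean of 15.02% of the cluster in naïve and 11.02% in day 7 injured libraries, and miR-379-5p held 23.2% in naïve, 27.1% in day 7 injured and 30.2% in day 7 contralateral libraries.

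miR-379-5p, from the first hairpin, was between 421 and 687 CPM with a median of 538 in naïve libraries. It was 598, 555 and 511 CPM in day 1 contralateral, 598, 412.1 and 704 CPM in day 1 injured and 996, 455.2 and 601 CPM in day 7 contralateral libraries. The day 7 injured libraries held 2102, 2456 and 2494 CPM. Every one of them was above the highest of the others, the day 7 contralateral library 1. The log2 fold change of day 7 injured against naïve was 2.11 ± 0.23 (SE), and against day 7 contralateral it was 1.88 ± 0.27. Its opposite arm, miR-379-3p, was between 21.2 and 30.3 CPM with a median of 25.3 in naïve libraries and 109, 124 and 105 CPM in day 7 injured libraries, with a log2 fold change of 2.14 ± 0.24. Both arms of this hairpin thus differed from naïve by about the same amount.

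miR-541-5p, from the 3′ part of the cluster, was between 344 and 579.8 CPM with a median of 475 in naïve libraries. The day 7 injured libraries held 1808, 1758 and 1927 CPM, and the day 7 contralateral libraries 380.5, 390.3 and 395 CPM. The contralateral values lay close together, and no day 7 injured library overlapped them. Its log2 fold change against naïve was 1.99 ± 0.19 and against day 7 contralateral 2.24 ± 0.22. miR-381-3p, which with miR-134 and miR-329 is known for acting on dendrite growth in neurons, was between 259 and 469.5 CPM with a median of 368.6 in naïve and 1194, 1407 and 1283 CPM in day 7 injured libraries. Its spread at day 1 after injury was wide, at 422, 158 and 543.7 CPM, but stayed below the day 7 injured range. The log2 fold change of miR-381-3p against naïve was 1.88 ± 0.33. Its close relative miR-300-3p was between 67.0 and 125.6 CPM with a median of 99.8 in naïve and 338, 398 and 411.5 CPM in day 7 injured libraries, a log2 fold change of 2.04 ± 0.23.

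miR-411-5p differed less than these arms. Naïve libraries held between 305 and 375.8 CPM with a median of 365, and the day 7 injured libraries 751, 939 and 1192 CPM. The groups did not overlap, and the log2 fold change was 1.43 ± 0.22. miR-382-5p had a similarly small difference, of 1.60 ± 0.19, from 78.4 ± 12.4 CPM in naïve (mean ± SD, n = 6) to 250.0, 222 and 239 CPM in the 3 day 7 injured libraries. miR-134-5p, known in neurons as a regulator of dendritic spine size through Limk1, varied little among libraries. It was between 43.0 and 56.2 CPM with a median of 47.8 in naïve libraries, 57.7, 34.96 and 37.0 CPM in day 7 contralateral libraries and 199.2, 249.8 and 239 CPM in day 7 injured libraries. The log2 fold change was 2.23 ± 0.20 against naïve and 2.46 ± 0.23 against day 7 contralateral.

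At the other end of the cluster, miR-410-3p was between 8.86 and 20.3 CPM with a median of 13.1 in naïve libraries. It was 22.7, 8.87 and 10.8 CPM in day 7 contralateral and 39.8, 38.9 and 46.2 CPM in day 7 injured libraries, which did not overlap. The log2 fold change against naïve was 1.66 ± 0.28. miR-410-5p was not tested, with 2 counts in all over the 18 libraries. The first and the last hairpin of the cluster were thus both higher in every day 7 injured library, through the arm or arms that could be measured.

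The members that averaged at least 10 CPM and differed most from naïve at day 7 after injury were miR-369-3p, miR-409-3p, miR-134-5p, miR-543-3p and miR-379-3p. miR-369-3p was between 3.69 and 26.5 CPM with a median of 11.8 in naïve and 48.1, 62.5 and 71.1 CPM in day 7 injured libraries, with a log2 fold change of 2.46 ± 0.67. Its values scattered widely elsewhere, at 21.9, 0 and 33.5 CPM at day 1 after injury. miR-409-3p was between 15.5 and 61.5 CPM with a median of 28.1 in naïve and 122, 133.5 and 205.9 CPM in day 7 injured libraries, a log2 fold change of 2.37 ± 0.34. miR-543-3p was between 24.0 and 60.6 CPM with a median of 36.2 in naïve and 133.3, 168 and 230.5 CPM in day 7 injured libraries. Its log2 fold change was 2.22 ± 0.47, with a day 7 contralateral library as low as 4.12 CPM beside others of 60.3 and 33.3 CPM.

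Below 10 CPM on average, 2 arms had larger differences, and both are among the 5 that the day 7 injured libraries brought past the filter. miR-376b-3p belongs to the miR-376 family, whose transcripts are known for adenosine-to-inosine editing. It was between 0 and 4.42 CPM with a median of 1.55 in naïve libraries and 9.62, 13.1 and 21.6 CPM in day 7 injured libraries, with a log2 fold change of 3.32 ± 0.65 that rests on 19 naïve counts in all. miR-380-3p was between 1.97 and 4.42 CPM with a median of 3.09 in naïve, 2.61, 0 and 2.92 CPM in day 1 injured and 23.4, 27.6 and 35.5 CPM in day 7 injured libraries, a log2 fold change of 3.14 ± 0.38 against naïve. A library at 0 cannot be told from one below 3 counts, which was 2.51 CPM in day 1 injured library 2.

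The smallest differences among members of at least 10 CPM were those of miR-299a-5p, miR-376b-5p, miR-154-5p, miR-329-3p and miR-409-5p. miR-299a-5p was between 7.20 and 19.6 CPM with a median of 12.2 in naïve and 16.5, 16.7 and 20.9 CPM in day 7 injured libraries, which overlapped, and its log2 fold change of 0.54 ± 0.28 was not called. miR-376b-5p was between 14.1 and 54.3 CPM with a median of 37.8 in naïve and 57.7, 54.3 and 43.5 CPM in day 7 injured libraries, with a log2 fold change of 0.58 ± 0.47 that was not called either. miR-154-5p did not overlap naïve, at 41.2, 28.1 and 25.6 CPM in day 7 injured libraries, but day 7 contralateral library 1 was as high, at 41.2 CPM. Its log2 fold change of 0.85 ± 0.34 against naïve was not called. miR-329-3p, at 0.95 ± 0.24, and miR-409-5p, at 0.98 ± 0.30, were called, and both calls were lost with library totals in place of TMM or with every miRNA of at least 1 count in the fit. For miR-409-5p the call was also lost without naïve library 2, without day 7 injured library 1 or without day 7 injured library 2, and for miR-369-3p without day 7 injured library 3.

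**Figure D2:**
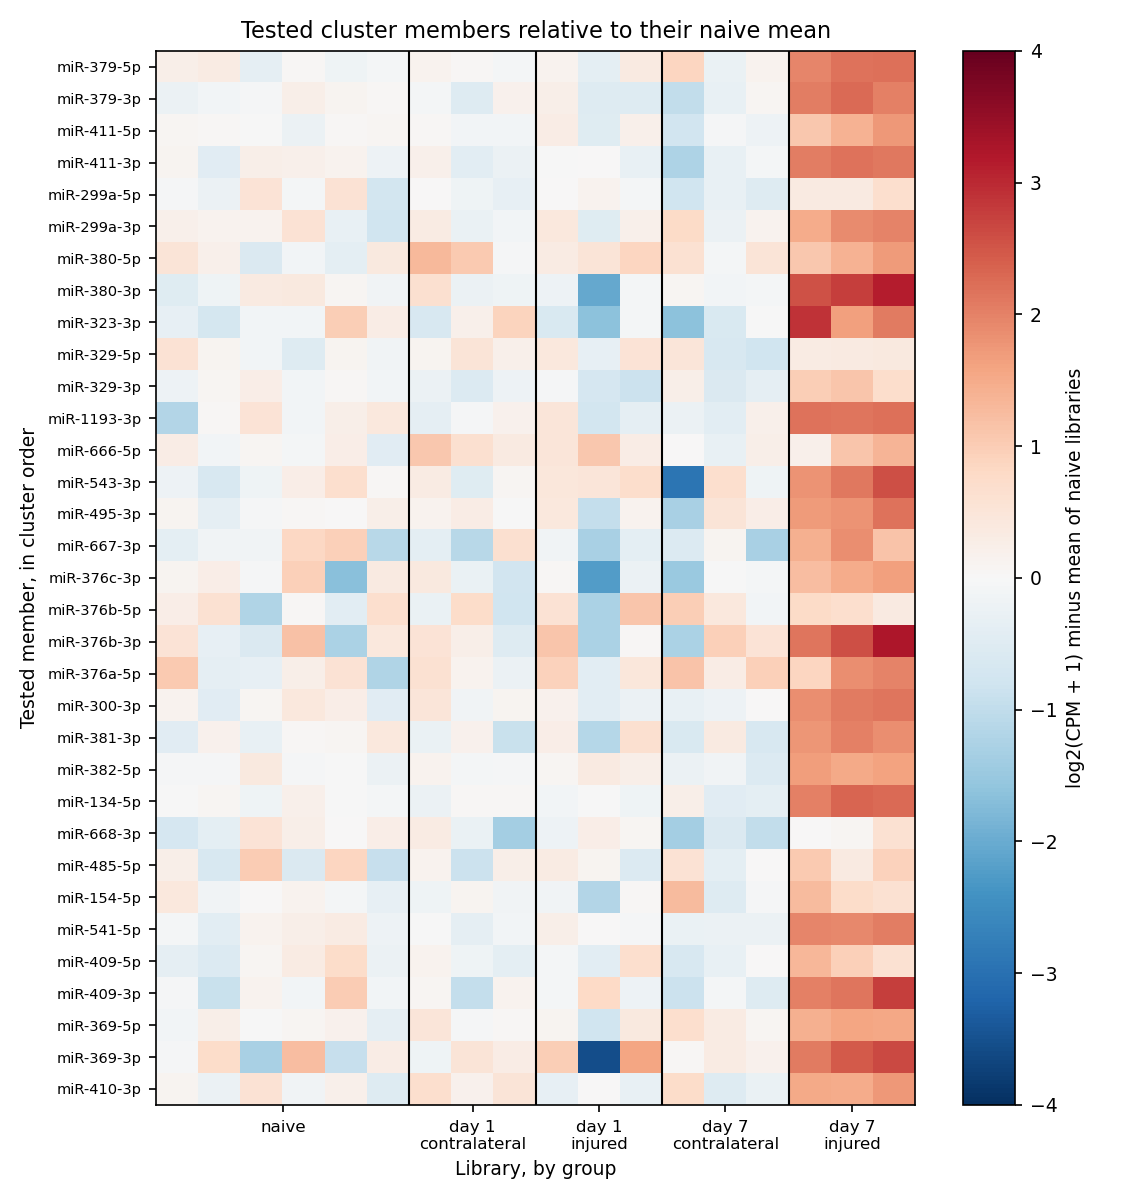
log2(CPM + 1) of the 33 tested members (rows, in cluster order) in each of the 18 libraries (columns, by group), minus the member's mean over the naïve libraries; red is higher and blue lower than naïve. The 3 day 7 injured columns are red in nearly every row, palest for miR-329-5p, miR-299a-5p, miR-376b-5p and miR-668-3p, and the day 1 injured columns are mixed.

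Over the whole list, 27 of the 33 tested members were called higher and 0 lower in day 7 injured against naïve libraries (limma, adjusted p under 0.05 over 428 miRNAs). Of all 428 miRNAs, 14.5% were called higher there. Since this contrast led to the choice of the cluster, nothing is read from that difference. The median log2 fold change was 1.85 over the members and -0.0028 over all miRNAs. The 6 that were not called were miR-299a-5p, miR-329-5p, miR-376b-5p, miR-154-5p, miR-485-5p and miR-668-3p, and all 33 log2 fold changes were above 0, from 0.37 to 3.32. All 3 day 7 injured libraries were above all 6 naïve libraries for 25 members, against a background of 15.4% of all miRNAs.

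Against the day 7 contralateral knee 27 of 33 members were called higher, where 13.8% of all miRNAs were. The median log2 fold change of the members was 1.93, and 27 of them had no overlap between the groups, against 17.5% of all miRNAs. Against day 1 injured cartilage 24 of 33 were called higher, where 12.1% of all miRNAs were, with a member median of 1.86. Over all miRNAs that comparison gave 52 higher and 15 lower calls, which became 49 and 3 with scaling by library totals, and 58 and 8 with TMM factors computed without the members. The change of injured against contralateral knees was called larger at day 7 than at day 1 for 17 of 33 members, where 6.78% of all miRNAs were called, and the member median of that difference was 1.92. These 4 comparisons share the day 7 injured libraries and are not separate evidence.

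Of the 33 members tested, 5 passed the filter only through the day 7 injured libraries. The 5 comparisons without these libraries did not enter the choice of the cluster and were tested. They ask whether the members differed early after injury or in the uninjured knee. None of the 33 members was called in any of them, by limma, edgeR or DESeq2, and 0% of all 428 miRNAs were called by limma. At an unadjusted p under 0.05 in limma there were 0 members for day 1 injured against naïve (8 of all 428 miRNAs). There were 0 for day 1 injured against day 1 contralateral (8 of 428) and 1 for day 7 contralateral against naïve (23 of 428). There were 2 for day 1 contralateral against naïve (4 of 428) and 2 for day 7 against day 1 contralateral (25 of 428). No difference was thus detected, which does not show that levels were equal.

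For day 1 injured against naïve the member median was -0.06, a sign that flipped under other settings (-0.24 to 0.16), with 16 log2 fold changes above 0 and 17 below. Over all 428 miRNAs the median was 0.07, with 248 above 0 and 180 below. The member with the smallest p was miR-329-3p, with a log2 fold change of -0.53 ± 0.26 and an adjusted p of 0.992 in limma. Its values at day 1 after injury, 30.3, 19.3 and 16.5 CPM, overlapped the naïve range of 27.1 to 37.5 CPM. For day 1 injured against day 1 contralateral the smallest p was that of miR-380-3p, at -1.19 ± 0.62 with an adjusted p of 0.997 in limma. That difference turned on day 1 injured library 2, in which miR-380-3p was at 0, and was -0.26 without it. The member median there was -0.05, and its sign flipped as well (-0.19 to 0.22). miR-379-5p had a log2 fold change of 0.04 ± 0.25 and miR-134-5p of -0.11 ± 0.21 for day 1 injured against naïve. For these 2 arms an interval of 2 SE on either side lay below their day 7 log2 fold changes against naïve, 2.11 and 2.23. Those day 7 values led to the choice of the cluster, so nothing rests on this. For other members the interval reached the day 7 value, as for miR-666-5p (0.67 ± 0.37 at day 1, 1.21 at day 7) and miR-299a-5p (0.06 ± 0.30 and 0.54).

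In the contralateral knee the member median was -0.23 at day 7 and -0.05 at day 1 against naïve, where the medians of all miRNAs were -0.01 and 0.08. Of 33 members, 23 had a log2 fold change below 0 at day 7, as did 219 of all 428 miRNAs. Members share libraries and in part hairpins, and a difference of the list as a whole was not tested. miR-668-3p had the smallest p at day 7, with 2.06, 4.17 and 2.91 CPM against a naïve range of 3.94 to 10.4 CPM, a log2 fold change of -1.03 ± 0.43 and an adjusted p of 0.675 in limma. miR-666-5p had the smallest p for day 1 contralateral against naïve, at 0.82 ± 0.35 with an adjusted p of 0.996 in limma, and for day 7 against day 1 contralateral, at -0.91 ± 0.40 with an adjusted p of 0.701 in limma. In the day 1 contralateral libraries miR-666-5p was 8.38, 5.82 and 4.69 CPM, and in naïve libraries it was between 2.21 and 4.43 CPM with a median of 3.42.

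Along the chromosome the differences at day 7 showed little gradient. The Spearman correlation between the distance of a hairpin from miR-379 and the log2 fold change of its arm against naïve was -0.11 over 32 placed members, which share their libraries and in part their hairpins. It was -0.0024 over the 27 of them that passed the filter also without the day 7 injured libraries. The median log2 fold change was 1.94 over the 21 members that lie before Mirg and 1.60 over the 11 inside it. Every member that passed the filter only through the day 7 injured libraries lies before Mirg, so the filter bears on the first median. Arms of neighbouring hairpins could differ widely. miR-299a-5p, at 0.54 ± 0.28, and miR-380-3p, at 3.14 ± 0.38, start 1.58 and 2.74 kb from the start of miR-379. These are different arms, and their opposite arms were close, at 1.85 ± 0.30 for miR-299a-3p and 1.83 ± 0.42 for miR-380-5p. Both arms of miR-380 passed the filter only through the day 7 injured libraries.

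**Figure D3:**
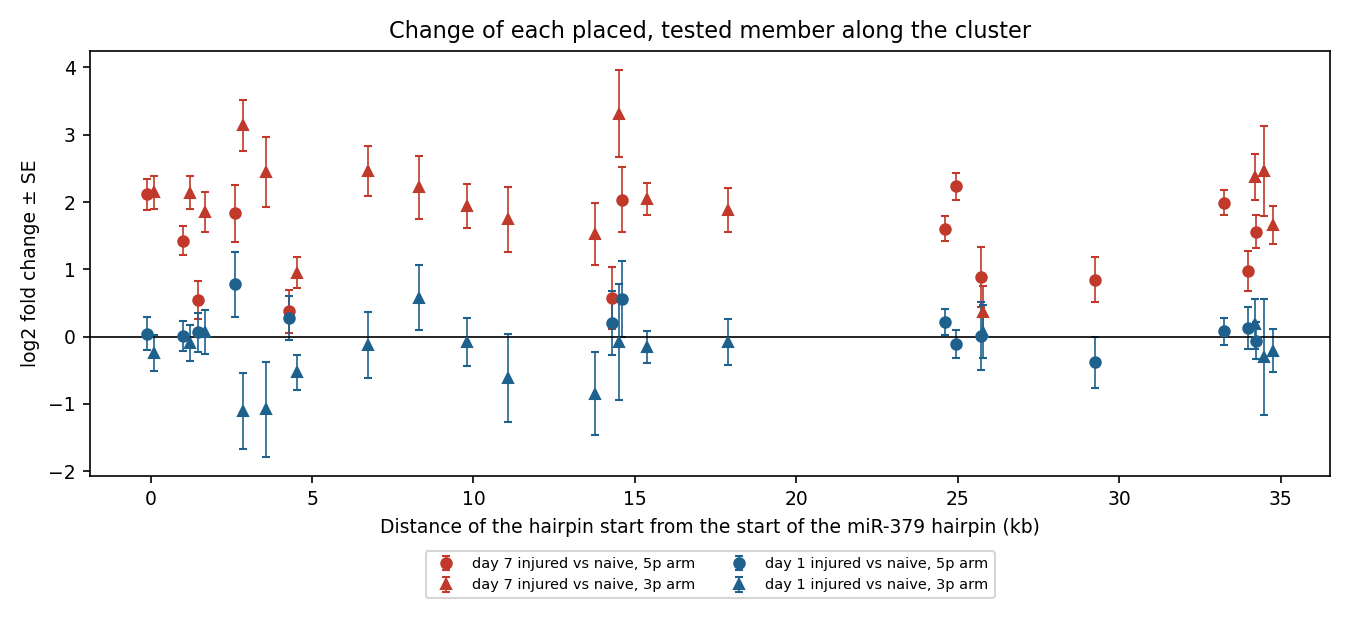
log2 fold change ± SE (y axis) of the 32 placed, tested members against the distance of their hairpin from the start of miR-379 in kb (x axis), for day 7 injured against naïve (red) and day 1 injured against naïve (blue), with circles for 5p arms and triangles for 3p arms. The red points lie between 0.37 and 3.32 along the whole cluster, and the blue points lie on both sides of 0.

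At day 7 after injury the median log2 fold change against naïve was 2.09 over the 18 tested 3p arms and 1.43 over the 15 tested 5p arms. The filter bears on this, since 4 of these 3p arms and 1 of these 5p arms passed it only through the day 7 injured libraries. Without them the medians were 1.91 over 14 3p arms and 1.32 over 14 5p arms. Over all miRNAs tested the medians were 0.03 for 194 3p arms and 0.02 for 202 5p arms. Of the 18 3p arms 17 were called higher and of the 15 5p arms 10, where 16.5% of all 3p arms and 13.9% of all 5p arms were, and the difference between arms over the list was not tested. Both arms were tested for 8 hairpins, namely miR-379, miR-411, miR-299a, miR-380, miR-329, miR-376b, miR-409 and miR-369, and for these the ratio of 5p to 3p counts was compared within each library. This ratio does not depend on library scaling.

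The ratio was lower in day 7 injured than in naïve libraries for 8 of 8 hairpins, with a median change of log2(5p/3p) of -1.12, where the median over all 111 hairpins was -0.03. The hairpins miR-376b and miR-380 are among the 8 because an arm was high enough in the day 7 injured libraries, and over the other 6 the median change was -0.82. In naïve cartilage miR-376b was mostly the 5p arm, which held 95.5% of its counts, against 74.4% in day 7 injured cartilage. Its log2(5p/3p) was 2.50, 2.03 and 1.01 in the day 7 injured libraries and between 2.89 and 5.88 in naïve libraries, a change of -2.59 ± 0.81 (SE). The naïve ratios rest on 19 counts of the 3p arm in all, with 0 in naïve library 5, so the pseudocount of 0.5 weighs on them. For miR-299a the 5p arm held 39.2% of counts in naïve and 20.5% in day 7 injured libraries, and the change was -1.33 ± 0.43. For miR-409 it held 44.4% and 20.8%, and the change was -1.34 ± 0.46. miR-379 was the exception in size, with 95.7% and 95.6% of its counts on the 5p arm and a change of -0.03 ± 0.38.

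None of the 8 ratios was called against naïve (limma, adjusted over 111 hairpins), where 1.8% of all hairpins were, although 4 of the 8 and 12 of all 111 had an unadjusted p under 0.05. In 2 alternatives some were called. A pseudocount of 5 in place of 0.5 called miR-299a and miR-380, and a fit to the naïve and day 7 injured libraries alone called miR-376b and miR-409. Against day 7 contralateral the ratio was again lower for 8 of 8, with a median change of -1.01, and 0 were called, as for 0% of all hairpins. There 4 of the 8 and 7 of all 111 had an unadjusted p under 0.05, and over the 6 hairpins without miR-376b and miR-380 the median change was -0.81. The difference between arms is thus not established for any single hairpin. As neither comparison is independent of the choice of the cluster, these changes are descriptions. The comparison of day 7 contralateral with naïve does not hold the day 7 injured libraries, but miR-376b and miR-380 are among its 8 hairpins only through them. There 2 of 8 ratios were lower, the median change was 0.20, and none was called in limma, as for 0% of all hairpins. The lowest adjusted p among the 8 was 0.457 in limma, and 0 of the 8 and 14 of all 111 had an unadjusted p under 0.05.

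**Figure D4:**
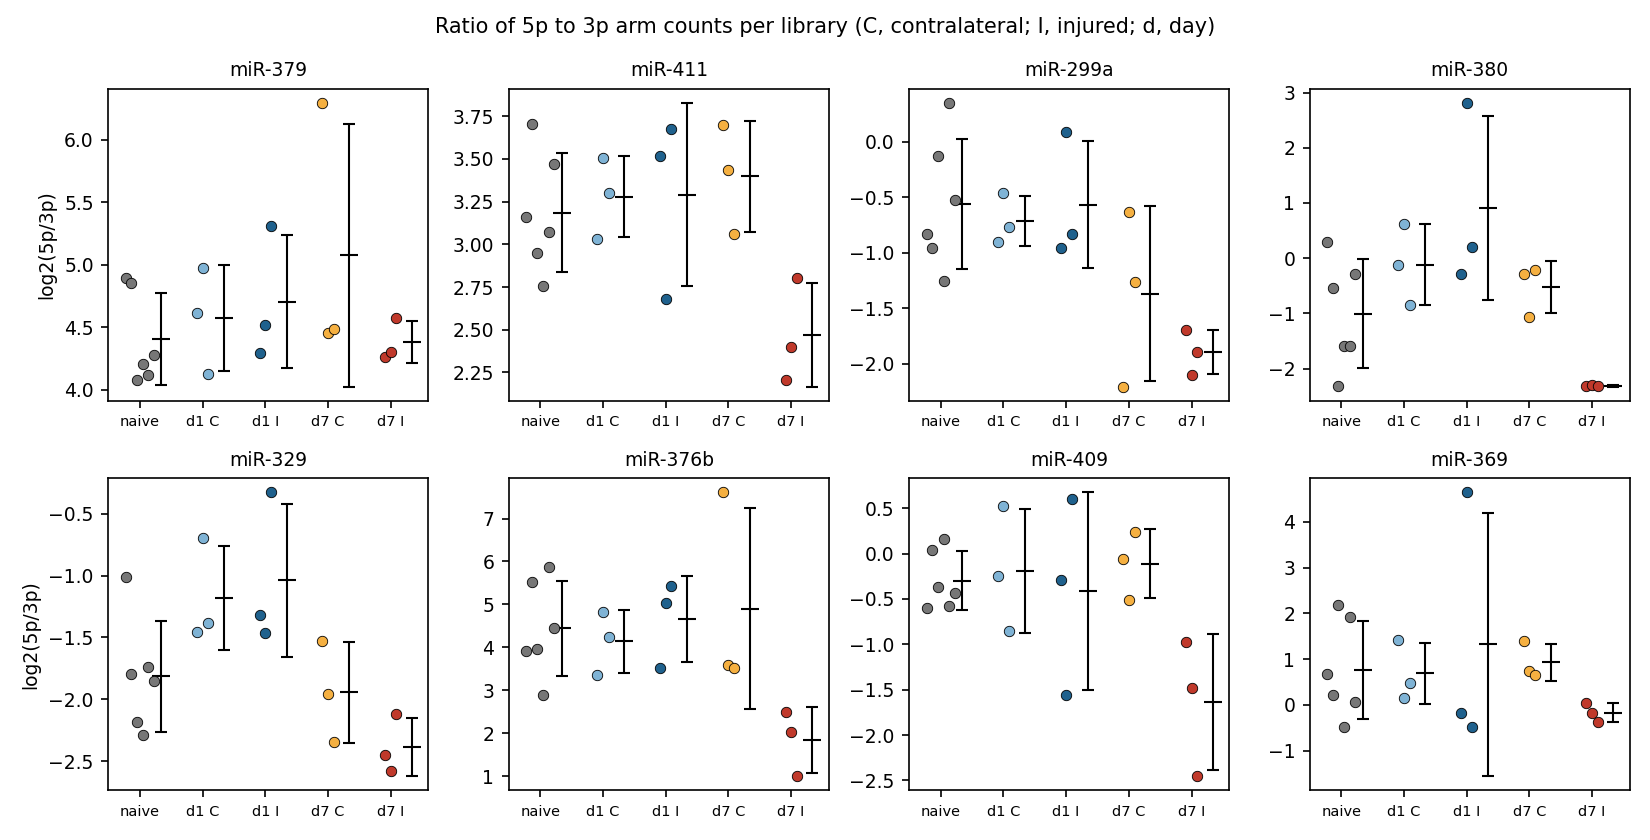
log2 ratio of 5p to 3p counts (y axis, pseudocount 0.5, each panel on its own scale) of the 8 hairpins with both arms tested, by group (x axis; d1 and d7, day 1 and day 7; C, contralateral; I, injured). Points are libraries and the bar is mean ± SD; for miR-376b and miR-409 the 3 day 7 injured libraries lie below every naïve library, and for miR-379 they overlap.

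The other 36 members had 865 counts in all over the 18 libraries and were not tested, and none was at 0 in every library. Their summed abundance was between 12.8 and 23.1 CPM in naïve, between 17.2 and 24.7 CPM in day 7 contralateral and between 53.6 and 62.5 CPM in day 7 injured libraries. In the naïve libraries 26 of the 36 had at least 1 count and in the day 7 injured libraries 29 had one. Of the 36, 7 had at least 50 counts. With every miRNA of at least 1 count in the fit, 4 of the 36 were called higher in day 7 injured against naïve libraries, namely miR-154-3p, miR-377-3p, miR-494-3p and miR-496a-3p, where 4.11% of all 1412 miRNAs were. miR-494-3p was at 1.26 ± 0.414 CPM in naïve and 5.38 ± 1.01 CPM in day 7 injured libraries. Hairpins with a tested arm numbered 25 of the 36.

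The neighbouring miRNAs of 12qF1 outside the cluster gave 15 tested arms of 32. Of these, 9 were called higher at day 7 after injury against naïve, with a median log2 fold change of 1.43, 10 against day 7 contralateral, 6 against day 1 injured and 4 in the difference between days. Of all 428 miRNAs, 14.5%, 13.8%, 12.1% and 6.78% were called higher in the same comparisons. None of the 15 was called in the 5 comparisons without day 7 injured libraries, in which between 0 and 2 of them had an unadjusted p under 0.05 in limma. Over all 428 miRNAs that count was between 4 and 25. miR-127-3p, which is transcribed antisense to Rtl1, went from 1871 ± 456 to 4293 ± 324 CPM (SD), a log2 fold change of 1.23 ± 0.23. miR-434-5p, also antisense to Rtl1, had a log2 fold change of 2.03 ± 0.31 and its 3p arm one of 0.54 ± 0.24. In this hairpin the 5p arm thus differed more. Its ratio of 5p to 3p counts was called higher in day 7 injured against naïve libraries. The only other hairpin called there was miR-23b, also higher. The 8 hairpins above had lower ratios, by almost nothing for miR-379, and none was called. Among other neighbours with both arms tested, the 5p arm differed more in miR-127 and miR-673 and less in miR-136. In these the gap between arms was smaller than the SE of the 5p arm. Whether the cluster differed from these neighbours was not tested.

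Outside 12qF1, the 5 miRNAs whose log2 CPM followed the log2 summed CPM of the cluster most closely over the 18 libraries were miR-31-5p, miR-34c-5p, miR-335-3p, miR-214-5p and miR-21a-5p. miR-335 is encoded in the imprinted gene Mest, and miR-21a is a widely expressed miRNA. Over the 15 libraries outside the day 7 injured group their Pearson correlations with the cluster were between -0.0031 and 0.317, so the likeness lay in the day 7 injured libraries, and no value over all libraries is given because these stand apart. miR-335-3p was 35.8 ± 9.49 CPM in naïve and 431.5 ± 109 CPM in day 7 injured libraries, and miR-21a-5p was 7430 ± 2436 and 25342 ± 5413 CPM.

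Markers of the cell types that such tissue can hold moved in part with the cluster. Of 6 arms of miR-199 and miR-214, known from mesenchymal cells, 5 were called higher at day 7 after injury against naïve, where miR-199a-3p and miR-199b-3p had the same count in every library and are 1 measurement. Their summed level was between 35455 and 62104 CPM in naïve and between 100816 and 117351 CPM in day 7 injured libraries. Of 7 erythroid arms, among which miR-486a-5p and miR-486b-5p had the same counts, 4 were called lower, with sums of 10449 to 15996 CPM in naïve and 5081 to 7028 CPM in day 7 injured libraries. Of the 8 tested leukocyte arms 1 was called lower. Of all 428 miRNAs, 62 were called higher and 16 lower in day 7 injured against naïve libraries. Of 4 cartilage arms (miR-140 and miR-455), 7 tested skeletal muscle arms and 6 vascular arms, 0 were called. miR-140-3p, the miRNA best known from cartilage, was 2784 ± 403 CPM in naïve (n = 6) and 2589 ± 429 CPM in day 7 injured libraries (n = 3). Muscle arms were abundant throughout, from 55122 to 274875 CPM, against 5029 to 10499 CPM for the cartilage arms, and no marker arm was at 0 in every library. In pooled tissue, more cells of a type and more RNA per cell cannot be told apart, and the part of these cell types in the levels of the cluster was not tested.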

How the data were processed

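Small RNA from pooled mouse femoral condyle cartilage was sequenced in 18 libraries. The deposited values are raw read counts per mature miRNA. As the methods state, the authors removed adapters with Trim Galore (0.6.6), aligned them with Bowtie (1.3.0) to mature sequences of miRBase and counted alignments with SAMtools (1.12), in a pipeline set to the GRCm38 mouse genome. Table rows were matched to samples by library number, although the prefix of that number differs. Groups came from the labels.

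Counts were filtered with filterByExpr (edgeR 4.0.16, minimum count 10, minimum total 15), scaled by TMM and fitted with limma 3.58.1 (voom, lmFit, eBayes; R 4.3.3) to all 18 libraries with 1 mean per group. P-values were adjusted by the Benjamini-Hochberg method over all 428 tested miRNAs in each comparison, at a threshold of 0.05. The study's block for shared mouse pools could not be fitted, since the labels do not give the pools. Arm ratios, log2 of (5p + 0.5)/(3p + 0.5), were fitted with limma over 111 hairpins. The scripts were tested on simulated data. Libraries of a group differed beyond counting noise in all 27 pairs, and rank correlations over the tested members were between 0.839 and 0.981. Depth was between 758388 and 4088852 counts per library. Alternatives covered scaling, filters, edgeR quasi-likelihood, DESeq2 (1.42.0), quality weights, fits to the compared groups, pseudocounts and leaving out each library.

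The members and lists were chosen with earlier results of these data known. Members were named by rule: both ends of the cluster, the 8 most abundant, the 5 largest and 5 smallest differences of day 7 injured against naïve among tested members averaging at least 10 CPM, the smallest p in each comparison without day 7 injured libraries, the hairpins with the 3 smallest p for arm ratio, and tested members sharing a seed. Other members were named after their values were seen.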

Additional observations from a re-analysis of the deposited data

Results flagged for a closer look

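In the 6 naïve libraries, 30 sets of values (the summed cluster, named members and arm ratios) were searched for a library far from the others, which chance finds in about 5% of sets. There were 3 such values. miR-411-5p was 305 CPM in naïve library 4, with the others at 353 or above. miR-382-5p was 103 CPM in naïve library 3, with the others at 76.8 or below. miR-409-3p was 61.5 CPM in naïve library 5, with the others at 32.6 or below. The causes were not tested, and all 3 values stayed below the day 7 injured libraries.

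The change of injured against contralateral knees was called larger at day 7 than at day 1 (limma interaction term) for 13 of the 21 tested named members, where 6.78% of all miRNAs were. The cluster and part of these names were chosen on libraries in this comparison, so the values are a description. The log2 difference between the days was 4.40 for miR-380-3p. It was 2.61 for miR-379-3p and 2.58 for miR-411-3p, which share a seed. miR-134-5p differed by 2.52, miR-300-3p by 2.50, miR-410-3p by 2.43 and miR-409-3p by 2.36. For the abundant arms the differences were 2.01 for miR-541-5p, 1.92 for miR-381-3p, 1.87 for miR-379-5p, 1.71 for miR-382-5p and 1.69 for miR-411-5p. The smallest of the 13 was 1.41, for miR-329-3p. The 8 named members that were not called lay between -0.10 for miR-376b-5p and 2.80 for miR-369-3p, with 2.28 for miR-543-3p and 0.86 for miR-299a-5p. For miR-380-3p the value rests in part on day 1 injured library 2, which had no count of it.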

How the results depend on the processing

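No paired analysis was possible because replicate numbers were given in accession order and the labels do not tie libraries to mouse pools. The count of members called stayed within 1.5 times its reported value in 150 of 153 recomputations. The exceptions came with the demand for at least 10 counts in every library, which left 18 members to test, of which 16 were called for day 7 injured against naïve, 17 against day 7 contralateral and 15 against day 1 injured. In the 5 comparisons without day 7 injured libraries 0 members were called under every alternative run, while the median for day 1 injured against naïve lay between -0.24 and 0.16 and that for day 1 injured against day 1 contralateral between -0.19 and 0.22, so both changed sign. With every miRNA of at least 1 count in the fit, the member median for day 7 injured against naïve was 1.36. The fold of summed CPM over naïve was 3.26 with library totals, and lay between 3.55 and 3.98 when 1 library was left out. Scaling by library totals moved the median of all miRNAs by -0.12 for day 7 injured against naïve and by -0.22 for day 1 injured against naïve. Arm ratios called against naïve numbered 2 with a pseudocount of 5 and 2 in the fit to the compared groups, and 1 with a pseudocount of 5 against day 7 contralateral. The exact permutation test called 0 arm ratios, and cannot pass 0.05 with 3 libraries against 3. Against naïve its smallest possible p passes the adjustment over 111 hairpins only if many hairpins reach it together, so that 0 decides little either. Among recomputed values of named members, 436 kept direction and side of the threshold, 12 lost the call and 3 gained it. The calls lost were those of miR-329-3p, miR-409-5p, miR-666-5p and miR-369-3p. Depth limits the arms below 10 CPM most.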
